A study of Mus musculus with 24 samples.

Results

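The hairpin probe sets of the miR arrays read the stem-loop precursors of microRNAs (miRs) in the hippocampus of newborn mice. They are all probe sets whose array name starts with the hairpin prefix (hp), chosen by name and not by their values. There were 690 of them among 1412 mouse probe sets, and the remaining 722 read mature miRs. The 690 probe sets covered 556 precursors of 498 miRs, and each was paired with a mature probe set of the same miR.

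The study asked how morphine given with neonatal stress changes gene and miR expression. All animals were male C57BL/6 mice killed on postnatal day 9 (P9), and treatment ran from P5. Untreated controls (Con) received 0 mg/kg morphine, were housed normally and handled little. The MS2 and MS5 pups received subcutaneous morphine at 2 mg/kg or 5 mg/kg per injection, and both were also isolated from the dam in a warmer and exposed to pure nitrogen and then pure oxygen to simulate apnea. No group received morphine alone or stress alone, so every contrast with Con holds both and they cannot be told apart. There were 9 miR arrays, 3 per group, and the labels tell the samples of a group apart only by a number.

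A miR gene is transcribed into a long primary transcript, from which the nuclease Drosha cuts a short hairpin. The hairpin leaves the nucleus, and the nuclease Dicer removes its loop to give the mature miR and its partner strand from the opposite arm. Precursors are usually short-lived, so a tissue holds far less of them than of mature miRs. The mature bases are also part of the hairpin, and the deposited table does not say which bases of a hairpin each probe set reads.

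RefSeq (build GRCm38.p6) gave a hairpin sequence for 419 of the 556 precursors (75.4%), which 512 of the probe sets read. The first set of sequences is shown because probe sets of near-identical hairpins differed widely in level. Capitals mark the longest run of A. The mir-465 hairpins lie on the minus strand of the X chromosome, at chrX:66825955-66826035 (mir-465c-1), chrX:66829202-66829280 (mir-465b-1) and chrX:66839052-66839125 (mir-465a). The hairpin mir-181a-2 lies at chr2:38852735-38852810 on the plus strand, within the spans of Nr6a1 and its antisense RNA Nr6a1os, and mir-181a-1 at chr1:137966455-137966541, also on the plus strand.
mir-465c-1: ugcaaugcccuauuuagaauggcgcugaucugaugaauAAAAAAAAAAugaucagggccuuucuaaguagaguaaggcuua
mir-465b-1: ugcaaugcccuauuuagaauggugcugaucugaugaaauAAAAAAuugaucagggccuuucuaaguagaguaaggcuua
mir-465a: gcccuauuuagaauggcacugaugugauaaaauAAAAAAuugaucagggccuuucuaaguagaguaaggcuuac
mir-181a-2: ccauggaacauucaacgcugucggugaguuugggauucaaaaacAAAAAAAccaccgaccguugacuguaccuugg
mir-181a-1: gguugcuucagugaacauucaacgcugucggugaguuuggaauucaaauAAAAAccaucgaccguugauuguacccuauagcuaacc

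The second set is shown because changes against Con, or differences from the mature miR, turned on these hairpins. Capitals mark the mature arms that the RefSeq table gives. For mir-34c these are the arm of miR-34c-3p alone, the partner strand of the mature miR-34c whose levels are given here. The hairpin mir-483 lies within the span of Igf2, the insulin-like growth factor 2 gene (chr7:142654924-142654996, minus strand), and mir-204 within Trpm3, a cation channel gene (chr19:22750605-22750672, plus strand). The hairpin mir-34c (chr9:51103034-51103110, minus strand) lies within the spans of Btg4 and Hoatz, and mir-30c-1 (chr4:120769534-120769622, minus strand) within Nfyc. The hairpins mir-194-2 (chr19:6264643-6264728, plus strand) and let-7i (chr10:122985640-122985724, minus strand) lie within no annotated gene span other than those of miR genes.
mir-483: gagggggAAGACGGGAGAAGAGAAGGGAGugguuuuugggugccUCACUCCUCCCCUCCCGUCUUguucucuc
mir-204: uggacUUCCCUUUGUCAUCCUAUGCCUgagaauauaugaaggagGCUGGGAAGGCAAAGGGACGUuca
mir-34c: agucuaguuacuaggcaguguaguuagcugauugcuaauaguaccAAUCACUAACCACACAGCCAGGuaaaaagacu
mir-194-2: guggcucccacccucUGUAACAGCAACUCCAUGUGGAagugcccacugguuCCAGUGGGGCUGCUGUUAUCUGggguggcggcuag
mir-30c-1: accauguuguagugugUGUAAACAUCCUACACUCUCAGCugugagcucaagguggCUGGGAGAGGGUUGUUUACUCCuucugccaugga
let-7i: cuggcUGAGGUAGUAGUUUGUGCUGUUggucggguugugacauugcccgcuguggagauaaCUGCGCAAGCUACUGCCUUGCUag

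Most hairpins were measured near the lower end of the scale. A level here is the deposited normalized log2 intensity averaged over the 9 arrays. The median hairpin level was 4.09, with quartiles of 4.01 and 4.21, and 628 of the 690 probe sets (91.0%) lay below 4.5. Mature probe sets had a median of 4.68 and an upper quartile of 7.33. Only 26 hairpins (3.77%) exceeded a level of 5, against 328 mature probe sets (45.4%), and 6 hairpins exceeded 8, against 146 mature probe sets. Levels of different probe sets are not calibrated to each other, so these are distributions and not amounts. In 469 hairpins (68.0%) at least one value was identical on several arrays, against 299 mature probe sets (41.4%). Near the lower end a true change gives a smaller measured change, which limits every comparison of those hairpins.

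A high mature level seldom came with a high hairpin level. Among 198 pairs whose mature probe set exceeded 8, the hairpin was below 4.5 in 165 (83.3%). The share of hairpins above 5 was 0.935% where the mature level was at most 5, 4.09% from 5 to 8, 6.35% from 8 to 11 and 11.1% above 11. Over all 690 pairs the levels had a Pearson r of 0.23 and a Spearman rho of 0.37 across probe sets, which are not independent because paralogs share a mature miR. All 18 let-7 hairpins, precursors of a family that rises with differentiation, lay between 3.92 and 4.48, while the 9 let-7 family mature probe sets had a median of 12.26. Of 31 hairpins of neuron-enriched miRs 4 exceeded 5, namely mir-138-2_x and 3 of mir-124.

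The highest hairpin readings came from mir-124, an abundant neuronal miR. Its probe sets mir-124-1_s, mir-124-2_s and mir-124-3_s read 14.00, 13.95 and 13.98, beside 14.28 for mature miR-124. The partner strand miR-124-star read 7.57. The other 4 probe sets of the same precursors, mir-124-1, mir-124-1_x, mir-124-2 and mir-124-2_x, read only 3.86 to 4.27. In Affymetrix naming the suffix s or x marks probes that also match other sequences. Over the 130 precursors with several probe sets the median range of level was 0.10, and it exceeded 1 log2 unit in 3, namely mir-124-1, mir-124-2 and mir-151 (4.16 and 5.20). Of the 25 probe sets with the suffix s, 5 exceeded a level of 5, against 8 of 154 with x and 13 of 511 with neither.

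The next highest were the mir-465c hairpins, from an X-linked cluster known from the testis. The mir-465c-1 and mir-465c-2 sequences are identical over 81 bases, and their probe sets, both with the suffix s, read 9.96 and 10.01. The mature arms miR-465c-5p and miR-465c-3p read 4.01 and 3.88, at the lower end of the scale. The 7 probe sets of mir-465a and mir-465b also lay there, between 3.98 and 4.24, although mir-465b-1 shares 76 bases with mir-465c-1. Among other differences in the printed sequences, the loop of mir-465c carries a run of 10 A and those of mir-465b and mir-465a a run of 6.

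The mir-181a hairpins differed in the same way. The 2 probe sets of mir-181a-2 read 6.22 and 6.49 and its longest run is 7 A, while those of mir-181a-1 read 4.10 and 4.12 and its longest run is 5 A. Among the 512 probe sets with a RefSeq sequence, the 4 whose hairpin holds a run of 7 or more A (mir-465c-1, mir-465c-2 and both of mir-181a-2) lay between 6.22 and 10.01. The 11 with a run of 6 lay between 3.98 and 4.24, and of the 24 with a run of 5 none exceeded 4.69. The 11 come from 6 precursors and include the mir-465a and mir-465b probe sets described above. The 4 with the longest runs hold only 2 different sequences, and the classes were drawn after the levels were seen. Whether the run affects the reading was not tested. Across the 512 probe sets the level had a Pearson r of 0.31 and a Spearman rho of -0.04 with the longest run of A. The values were 0.06 and 0.12 with GC content, and -0.10 and -0.11 with hairpin length.

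Other hairpins above 6 were mir-1944 (8.20), mir-149 (6.51), and mir-466f-1_x, mir-466f-2_x and mir-466f-3_x (6.46 to 6.57). So were mir-204 (6.51 in its x probe set, beside 5.93 in its plain one) and mir-127 (6.05), a member of the imprinted Dlk1-Dio3 cluster. The paralog mir-466f-4 read 4.09 and 4.13. In 4 pairs the hairpin lay more than 1 log2 unit above its mature probe set: both mir-465c hairpins, mir-1944 (mature 5.69) and mir-1194 (5.39, mature 4.05).

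At 2 mg/kg with stress, 2 hairpins passed a test against Con, both lower. The question was which hairpins differed and whether they followed their mature miRs. A change is a difference between group means on the log2 scale, tested with limma over all 1412 mouse probe sets, with Benjamini-Hochberg adjustment. The study's threshold of more than 1.5-fold at an unadjusted p under 0.05 was passed by 1 hairpin, which was lower, and an adjusted p under 0.05 by another 1, also lower. Over all mouse probe sets 42 of 1412 (2.97%) passed the first, 20 of them higher (1.42%) and 22 lower (1.56%), and 16 (1.13%) passed the second. Of the hairpins, 48 (6.96%) had an unadjusted p under 0.05, of which 14 were higher and 34 lower. That share was 13.2% over all probe sets. The groups did not overlap in 87 hairpins (12.6%), against 15.8% of all probe sets. With 3 arrays against 3, an exact permutation test of a single probe set cannot give a p below 0.1.

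The hairpin with the adjusted p under 0.05 was mir-483, from the Igf2 locus. Its levels were 4.75, 4.80 and 4.80 in Con, 4.40, 4.37 and 4.44 in MS2, and 4.58, 4.43 and 4.61 in MS5. Every treated array lay below every Con array. The change in MS2 was -0.38 ± 0.07 (SE, n = 3 per group, limma adjusted p = 0.041). In MS5 it was -0.25 ± 0.07 (limma adjusted p = 0.43). The mature probe set miR-483 read 5.96, 5.09 and 5.59 in Con and 5.17, 6.12 and 5.57 in MS2, so its groups overlapped. The difference between the hairpin and mature changes in MS2 was -0.45, with a 95% interval from -1.09 to 0.20. The mir-483 change stayed between -0.36 and -0.40 when any 1 array was left out. Its limma adjusted p was 0.11 to 0.17 without Con replicate 16, 17 or 18 or MS2 replicate 3 or 6, where no hairpin was called, and 0.055 without MS5 replicate 14. The call was also lost with median centring (adjusted p = 0.055 by limma), with only the Con and MS2 arrays fitted and with a trend in the variance prior.

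The hairpin past 1.5-fold was mir-1944. Its levels were 8.60, 8.59 and 8.68 in Con, 7.88, 7.71 and 7.97 in MS2, and 7.86, 7.99 and 8.53 in MS5. All MS2 arrays lay below all Con arrays, and in MS5 replicate 14 lay just under them while the other two were near MS2. The change was -0.77 ± 0.16 in MS2 (SE, n = 3 per group, limma adjusted p = 0.059). In MS5 it was -0.49 ± 0.16 (limma adjusted p = 0.44). When 1 array was left out the MS5 change was smallest with MS5 replicate 9 omitted (-0.36) and largest with MS5 replicate 14 omitted (-0.69), where it passed the threshold. The mature miR-1944 ranged from 4.76 to 6.09 in Con and from 5.20 to 6.35 in MS2, a change of 0.48 that did not pass.

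Hairpins with a reading well above the lower end lay mostly below Con in MS2. Of the 26 above 5, the change was negative in 19, with a median of -0.17. Of the 664 others it was negative in 372, with a median of -0.01. An unadjusted p under 0.05 was reached by 11 of the 26, all lower, and by 23 lower and 14 higher of the 664. Most of the 664 lay near the lower end, where changes are compressed, so they are not a matched comparison. Of the 722 mature probe sets, 45.4% of which exceeded a level of 5, 19.1% reached an unadjusted p under 0.05 in MS2. Among these mature probe sets 64 were higher and 74 lower. None of the 26 had an adjusted p under 0.05. The median was -0.14 to -0.23 when any 1 Con or MS2 array was left out, with MS2 replicate 4 giving the last value. In MS5 the change was negative in 18 of the 26, with a median of -0.05, and in 331 of the 664 others, with a median of 0.001. Probe sets of the mir-466f family, of mir-465c and of mir-124 are related in sequence, and mir-181a-2 and mir-204 each have several probe sets among the 26. Such probe sets do not count as separate observations.

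In the mir-466f family, whose members lie in a large repeat-rich miR cluster, the change in MS2 was -0.38, -0.28 and -0.42 for mir-466f-1, -2 and -3 (limma adjusted p = 0.24, 0.27 and 0.14). For mir-466f-3 the levels were 6.76, 6.85 and 6.64 in Con, 6.43, 6.49 and 6.07 in MS2, and 6.55, 6.60 and 6.74 in MS5. Only MS2 lay wholly below Con. For mir-465c-2 the levels were 10.30, 10.30 and 10.15 in Con, 9.82, 10.04 and 9.97 in MS2, and 9.67, 9.95 and 9.89 in MS5. Both treated groups lay below Con, with changes of -0.30 in MS2 and -0.41 in MS5 (limma adjusted p = 0.20 and 0.43). The mir-465c-1 probe set, which reads the same sequence, gave -0.36 and -0.35.

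Probe sets of one precursor could oppose each other. The hairpin mir-138-2, from a miR enriched in neurons, had a change of 0.30 in its plain probe set and of -0.26 in its x probe set in MS2 (limma adjusted p = 0.34 and 0.22). Over all 130 precursors with several probe sets the median gap between their MS2 changes was 0.08 log2 units.

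In most pairs whose mature miR passed the threshold, the hairpin had an unadjusted p of 0.05 or above. In MS2 against Con, 41 mature probe sets passed 1.5-fold at an unadjusted p under 0.05. Of these, 30 were the main mature probe set of a hairpin, giving 35 pairs. The median absolute change was 0.66 for the mature member and 0.07 for the hairpin, the same as over all hairpins (0.07). The mature members were chosen for a large change, so the gap between these medians was set in advance. Their hairpins had a median level of 4.13, near the lower end, where changes are compressed. Whether the precursors themselves changed cannot be read from this. The hairpin's change had the same sign in 21 of the 35, and the share over all 690 pairs was not counted. An unadjusted p under 0.05 was found for 4 hairpins: mir-210 (-0.23), mir-320 (-0.33), mir-423 (-0.29) and mir-434 (0.21). None had an adjusted p under 0.05. Of all 690 hairpins, 48 (6.96%) had an unadjusted p under 0.05 in MS2. In MS5 against Con, 12 pairs had a mature probe set past the threshold. These pairs hold 10 different mature probe sets. The hairpin's change had the same sign in 10 of the 12, again without a share over all pairs to set beside it. An unadjusted p under 0.05 was reached by 2 of these hairpins, mir-204 and mir-2135-5_x, beside 39 (5.65%) of all hairpins. The median absolute hairpin change of the 12 pairs was 0.16, against 0.06 over all hairpins. Their median hairpin level was 4.43, against 4.09 over all hairpins, so the comparison is not matched in level.

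The hairpin and mature changes differed at an adjusted p under 0.05 in 7 of 690 pairs in MS2 (1.01%), by limma on the difference between hairpin and mature level within each array. They belonged to 6 miRs, and in all 7 the hairpin change was the smaller in size. Apart from mir-194-2_x (5.11) and mir-1983 (4.83), these hairpins lay near the lower end of the scale, where changes are compressed. The difference there rests mostly on the mature change and does not show that the precursor stayed unchanged. In 6 of the 7 the mature probe set was higher in MS2 than in Con and in 1, mir-501, lower. The count rests on single arrays: it was 42 without MS2 replicate 4, 2 without Con replicate 17 or MS5 replicate 14, and 0 without Con replicate 16 or 18 or MS2 replicate 3 or 6.

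The pair with the smallest p was mir-194-2_x with miR-194. The hairpin read 5.15, 5.44 and 5.15 in Con and 4.67, 5.15 and 4.82 in MS2, while the mature miR read 7.55, 7.85 and 7.51 in Con and 7.81, 8.21 and 8.06 in MS2. The hairpin was level with or below Con and the mature miR mostly above it. The changes were -0.37 and 0.39, a difference of -0.75 ± 0.10 (SE, limma adjusted p = 0.017), the only one of the 7 in which both changes exceeded 0.3 in size. The plain mir-194-2 probe set had a change of -0.25 (difference limma adjusted p = 0.077).

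In the other 6 pairs the hairpin read 3.88 to 4.83 on average, and its change in MS2 was at most 0.13 in size. Mature miR-30c, of the miR-30 family, read 10.00, 10.15 and 10.05 in Con and 10.84, 10.65 and 10.70 in MS2, with no overlap. Its hairpin probe set mir-30c-1_x read 4.18, 4.37 and 4.14 in Con and 4.14, 4.22 and 4.04 in MS2. The difference was -0.76 ± 0.11 (limma adjusted p = 0.022), and for mir-30c-2 it was -0.74 (limma adjusted p = 0.047), with the same mature probe set. The other probe sets of these precursors, mir-30c-1 and mir-30c-2_x, had hairpin changes of 0.06 and -0.0002, and their pairs were not called. For let-7i the mature miR rose by 0.60 and the hairpin's change was -0.04 (difference -0.64, limma adjusted p = 0.047). For mir-301a_x, mir-1983 and mir-501 the differences were -0.84, -0.79 and 0.64. The pair of the plain mir-301a probe set, with a hairpin change of 0.02, was not called.

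At 5 mg/kg with stress no hairpin passed either call. Over all mouse probe sets 14 of 1412 (0.992%) passed 1.5-fold at an unadjusted p under 0.05, with 3 higher (0.212%) and 11 lower (0.779%), all of them mature, and none had an adjusted p under 0.05. The lowest adjusted p of a hairpin was 0.43 by limma, and 39 hairpins had an unadjusted p under 0.05, with 22 higher and 17 lower, or 5.65% against 8.50% of all probe sets. The groups did not overlap in 61 hairpins (8.84%), against 12.3% of all probe sets. No pair had an adjusted p under 0.05 for the difference between hairpin and mature change, and 62 had an unadjusted p under 0.05. MS5 and MS2 share the Con arrays, so their contrasts with Con are not independent of each other.

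The study followed miRs by RT-PCR that it had chosen on these arrays, so they are no independent sample. They belong to 9 precursor names, with miR-34c and its star strand counted as 1. Of these miRs the study names only miR-204, miR-448, miR-455 and miR-574 as borne out by RT-PCR. The mature probe sets here are those of the pairing, so mir-1839 is set against miR-1839-5p although the assay was for miR-1839-3p, and mir-34c against miR-34c and not its star strand. Their 10 hairpin probe sets had a median level of 4.43, against 6.99 for the 9 mature probe sets. In MS5 8 of those 9 mature probe sets passed 1.5-fold at an unadjusted p under 0.05, while no hairpin did and 1, mir-204, had an unadjusted p under 0.05. Over the 10 hairpins the median change was -0.05, against -0.002 for all hairpins.

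Mature miR-448, encoded within the serotonin receptor gene Htr2c, read 7.16, 6.76 and 7.61 in Con and 7.25, 4.81 and 4.71 in MS5 replicates 9, 12 and 14. Its hairpin read 4.32, 4.15 and 4.53 in Con and 4.33, 4.32 and 4.32 in MS5. The mature level was low in replicates 12 and 14 only, and the hairpin readings of all MS5 arrays lay within the Con range. The difference between the changes was 1.58, with a 95% interval from 0.31 to 2.84 (limma adjusted p = 0.42).

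Mature miR-574-3p read 8.51, 8.24 and 8.42 in Con and 8.02, 7.53 and 7.51 in MS5, wholly below. The mir-574 hairpin ranged from 4.42 to 4.53 in Con and read 4.53, 4.83 and 4.67 in MS5. The difference was 0.90 ± 0.21 (SE, limma adjusted p = 0.25), and in MS2 it was also 0.90 (limma adjusted p = 0.077).

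The mir-34c hairpin kept nearly the order of its mature miR across arrays. The precursor is known from multiciliated cells. It read 4.98, 4.61 and 5.17 in Con, 5.03, 4.47 and 4.69 in MS2 and 4.92, 4.00 and 4.31 in MS5 replicates 9, 12 and 14. Mature miR-34c read 10.91, 9.84 and 11.01 in Con, 10.33, 9.83 and 10.16 in MS2 and 10.75, 8.45 and 8.50 in MS5. The 4 lowest arrays were the same and in the same order for both: MS5 replicate 12, MS5 replicate 14, MS2 replicate 4 and Con replicate 17. The hairpin change in MS5 was -0.51 ± 0.24 (limma adjusted p = 0.64), and the mature change was -1.35. The study does not name miR-34c among the miRs borne out by RT-PCR. When 1 array was left out the hairpin change was smallest with MS5 replicate 12 omitted (-0.30) and largest with MS5 replicate 9 omitted (-0.76). It passed 1.5-fold at an unadjusted p under 0.05 in the latter case and, at -0.66, with Con replicate 17 omitted.

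For mir-204, known from the choroid plexus, the epithelium that makes cerebrospinal fluid, the plain hairpin probe set read 6.35, 5.92 and 6.09 in Con and 5.93, 5.84 and 5.51 in MS5. The x probe set read 6.69, 6.51 and 6.39 in Con and 6.65, 6.45 and 6.13. Mature miR-204 read 6.99, 7.06 and 7.53 in Con and 7.31, 5.23 and 5.37 in MS5. The mature level was low in replicates 12 and 14, and the hairpin was lowest in replicate 14. The hairpin changes were -0.36 and -0.12, and the mature change was -1.22, none with an adjusted p under 0.05.

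The list of miRs known from choroid plexus and ciliated cells held 8 hairpins of 7 miRs. Their levels ranged from 3.92 to 6.51, and the median change in MS5 was -0.08, with 2 lower at an unadjusted p under 0.05 (mir-204 and mir-449b), beside 17 lower of all 690 hairpins. The mature probe sets of the list had a median change of -0.75 in MS5 and -0.11 in MS2, and they were lowest in MS5 replicates 12 and 14 for miR-204 and miR-34c. How much of this tissue each dissected sample held was not tested, and in bulk tissue fewer cells of a type and less RNA per cell cannot be told apart.

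The other lists are counted by an unadjusted p under 0.05, which 6.96% of all hairpins reached in MS2 and 5.65% in MS5. No hairpin of the let-7, oligodendrocyte (3), immune cell (6), blood (5) or vascular (3) lists had an unadjusted p under 0.05 against Con at either dose. Of 31 hairpins of neuron-enriched miRs, 2 were higher and 1 lower in MS2 by that criterion, and 1 was higher in MS5, mir-138-2. Of 21 hairpins of the miR-17-92 cluster and its paralogs, which act in cell proliferation, mir-20b alone was lower in MS2. Of 8 mesenchymal hairpins both mir-199b probe sets were higher in MS5, by 0.18 and 0.25, and of 8 hairpins with unusual processing mir-320 was lower in MS2.

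The imprinted Dlk1-Dio3 cluster, a maternally expressed array of miRs active in brain, gave 59 hairpins. In MS2, 3 were higher and 3 lower at an unadjusted p under 0.05, beside 14 higher and 34 lower of all 690 hairpins. In MS5, beside 22 higher and 17 lower of the 690, 5 were higher and none lower: mir-433, mir-434, mir-380, mir-495 and mir-409, by 0.19 to 0.28. Their limma adjusted p was 0.43 or above, and the list's median change was 0.03, against -0.002 for all hairpins. The mir-495 value is from its plain probe set. Its other probe set had an MS5 change 0.36 log2 units lower, in the opposite direction.

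Between the doses, MS5 against MS2, no hairpin passed either call. This compares with 6 of all 1412 probe sets (0.425%) past 1.5-fold at an unadjusted p under 0.05. The groups did not overlap in 50 hairpins (7.25%), against 8.43% of all probe sets. The lowest adjusted p of a hairpin was 0.48 by limma, for mir-138-2_x. It read 4.86, 5.03 and 4.91 in MS2 and 5.25, 5.33 and 5.21 in MS5, with no overlap and a change of 0.33. Of all hairpins 21 (3.04%) had an unadjusted p under 0.05, against 7.01% of all probe sets. Over the 690 hairpins the 5th to 95th percentile of the change ran from -0.13 to 0.18 log2 units.

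Across all pairs the hairpin and mature changes had a Pearson r of 0.26 in MS2 against Con and 0.22 in MS5 against Con, over 690 pairs that share arrays and, for paralogs, a mature probe set. The typical standard error of a hairpin's change was 0.09 log2 units, and that of a mature probe set was 0.12.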

How the data were processed

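The values were the normalized log2 intensities that the authors deposited for 9 Affymetrix miRNA 2.0 arrays, 3 per group. Per the study's methods the probe values were background corrected, variance stabilized, quantile normalized and summarized by median polish, and the submitters' processing notes name RMA. The scanner files and the 15 mRNA arrays were not used here. Hairpin and mature probe sets were paired by miR name, taking the unmarked strand or the arm with the higher level. Changes were fitted with limma 3.58.1 (R 4.3.3) over all 1412 mouse probe sets with 1 term per group, and pairs on the within-array difference over 690 pairs, with Benjamini-Hochberg adjustment. The study's threshold, above 1.5-fold at an unadjusted p under 0.05, was also counted. No covariate was used, and p-values measure only the spread between these samples, part of which may be technical. The fits were tested on simulated data: of 200 hairpins changed by 1 log2 unit 100% were recovered, and of 200 such pairs 89.5%, while 3 of 490 unchanged hairpins and 8 unchanged pairs were also called at an adjusted p under 0.05. The simulation added the full 1 log2 unit at every level, without compression near the lower end. The largest hairpin change measured here was -0.77, so this recovery does not apply to changes of the size seen. The number of arrays limits the precision.

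Named probe sets were those with an adjusted p under 0.05 or past the threshold, the 10 highest, the hairpins of called mature miRs, the 10 pairs with the smallest p, the RT-PCR miRs and list members. The members and lists were chosen with earlier results of these data known. Other centrings, weights, filters and single arrays left out were tried. Sequences and gene spans came from RefSeq (GRCm38.p6).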

Additional observations from a re-analysis of the deposited data

How the results depend on the processing

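The counts of hairpins past 1.5-fold at an unadjusted p under 0.05 were the same under every setting run on all arrays, at 1 in MS2 and 0 in MS5 against Con. When 1 array was left out the MS2 count stayed at 1 and the MS5 count was 0 to 1, with 1 without Con replicate 17, MS5 replicate 9 or MS5 replicate 14. The count of hairpins with an adjusted p under 0.05 in MS2 was 1. It was 0 with median centring, with only the 2 groups compared and with a trend in the variance prior, and 2 with array weights, with hairpin probe sets alone and with Storey q-values. It was 0 to 7 when 1 array was left out, with 7 without MS2 replicate 4. The count of differing pairs in MS2, 7, was 26 with array weights, 1 with the other mature arm (289 pairs), and 0 with only the 2 groups compared and with a trend in the variance prior. It was 0 to 42 when 1 array was left out, with 42 without MS2 replicate 4. In MS5 it was 0 to 3, with 3 without MS5 replicate 9. The cause was not tested. Among 1176 values of single named hairpins, only the 12 of mir-1944 in MS2 had a call to lose, and all 12 kept it. The others started below the threshold, and 3 passed it, all with 1 array left out (mir-34c in MS5 in 2 and mir-1944 in MS5 in 1). Their direction was not scored and could reverse. For let-7i in MS2 the change ran from -0.13 to 0.03 when 1 array was left out. Per the study's methods treated pups shared a cage with untreated littermates, and the experiment was repeated to collect animals. The labels give no litter or run, so no paired analysis was possible. Hairpins near the lower end of the scale have compressed changes, so a change there may be missed.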
